A study of Mus musculus with 24 samples.

Results

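Gene expression was compared between the cerebellum (CB) of mice homozygous for the 16Gso translocation (16GsoT/T) and of wild type (WT) mice at postnatal day 35 (P35). The members were all 6 P35 CB libraries of the 24 in the series, 3 from 16GsoT/T and 3 from WT mice, and all 25793 gene symbols of the table were read. 16Gso is a reciprocal translocation induced by bis-acrylamide that joins chromosomes 5 and 8. It breaks chromosome 5 between Galnt17, an enzyme that starts O-linked glycosylation, and Auts2, a regulator of transcription in neurons, and breaks chromosome 8 upstream of Sox1, a transcription factor of neural progenitors. Every cell of the mutant carries it from conception, so that the surroundings of several genes are changed at once. The study kept the line on a mixed B6C3 background, bred mutants from homozygous parents and describes the sequenced animals as males, whereas the labels give the strain as C57BL/6 and the WT library names carry B6C3. Mutants bred in this way have no WT littermates, and strain, litter and genotype cannot be told apart here.

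The cerebellum coordinates movement. Its granule cells, the most numerous neurons of the brain, send parallel fibers to Purkinje cells, whose inhibitory axons are the only output of the cerebellar cortex. Bulk RNA also holds RNA of glia, vessels, meninges and, where a piece is taken along, choroid plexus, the tissue that makes cerebrospinal fluid. In such samples fewer cells of a type and less RNA per cell cannot be told apart.

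Each P35 CB library held between 5140843 and 7974640 reads on genes. Of all reads in the table, 37.6 to 37.7% fell on genes in the WT libraries and 42.3 to 42.4% in the 16GsoT/T libraries, and reads that did not map to a unique place made up 10.6 to 11.2% and 7.90 to 8.64%. The groups did not overlap in either share. With 3 libraries against 3 the smallest p that a two-sided exact permutation test allows is 0.1, and both differences reached it. The P35 hippocampus (HC) libraries, with 39.3 to 41.1% of reads on genes, lay between these groups. In the share not mapped to a unique place, the HC libraries held 7.59 to 8.75%, in or near the range of 16GsoT/T CB. In that share the 3 WT CB libraries stood apart among the P35 libraries. In the share of gene reads on the 10 genes with most reads, the 16GsoT/T CB libraries stood apart instead, at 4.77 to 4.94%. That share was 6.02 to 6.83% in WT CB and 6.55 to 8.50% in HC. No batch is given in the labels, so library preparation and genotype cannot be told apart, and the part of these shares in the results below was not tested.

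Of 14004 genes tested, 4947 differed between 16GsoT/T and WT CB at an adjusted p of at most 0.05 (edgeR's quasi-likelihood test with Benjamini-Hochberg adjustment), which is 35.3%. Of these DEGs, 2432 were higher in the mutant (17.4% of genes tested) and 2515 were lower (18%). The median log2 fold change over all genes tested was -0.004. Large changes were mostly decreases: 343 of the genes called rose by 1.5-fold or more (2.45%) and 1291 fell by as much (9.22%). When libraries were scaled by their totals alone, 1842 genes were higher (13.2%) and 2994 lower (21.4%), and the median of all genes moved to -0.059. The groups did not overlap for 47.3% of all genes tested. Genes called lower were spread over all levels, at 18.3% of the quintile of lowest mean level and 14.3% of the highest. Large decreases were mostly at low levels. Of the genes called that changed by 1.5-fold or more, 504 fell and 65 rose in the lowest quintile. In the highest, 103 fell and 116 rose.

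**Figure D1:**
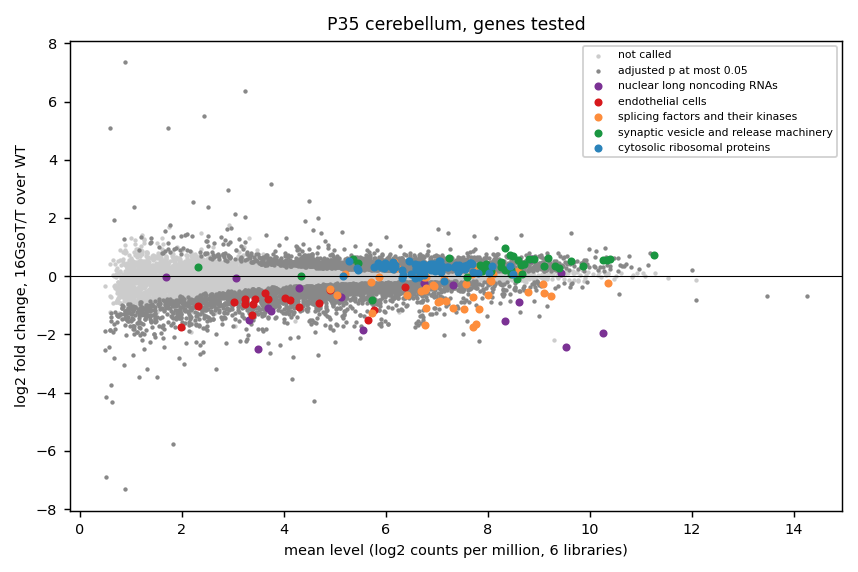
Log2 fold change of 16GsoT/T over WT (vertical axis) against the mean level in log2 CPM (horizontal axis), 1 point for each of 14004 genes tested in P35 CB. Synaptic vesicle genes and ribosomal protein genes lie mostly above 0, and nuclear noncoding RNAs, splicing factors and endothelial markers mostly below 0.

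Of 4 genes tested at the breakpoints, 2 were called higher and 1 lower. Levels are given as CPM, the reads on a gene divided by library size after scaling by the trimmed mean of M-values (TMM). Galnt17, listed under its older symbol Wbscr17 (NCBIM37 chromosome 5, 131347952 to 131783948), stood at 61.4, 60.6 and 60.2 CPM in WT and at 45.7, 52.4 and 48.5 CPM in 16GsoT/T. The groups did not overlap, and the log2 fold change was -0.31 ± 0.08 (SE, n = 3 and 3, edgeR adjusted p = 0.0083), a call that was lost in the fit of all 12 P35 libraries. Auts2 (chromosome 5, 131913205 to 133019214) stood at 72.0, 68.9 and 66.3 CPM in WT and at 98.2, 97.4 and 90.7 CPM in the mutant, again without overlap. Its log2 fold change was 0.46 ± 0.07 (edgeR adjusted p = 0.00033), and the call held in 13 of 13 other fits. Caln1, a calcium-binding neuronal protein gene on the far side of Galnt17, had a log2 fold change of 0.25 ± 0.08 (edgeR adjusted p = 0.025), a call that was lost in 7 of 13 other fits. Sox1 ranged from 22.4 to 30.4 CPM in WT and from 26.0 to 27.8 CPM in 16GsoT/T, and its log2 fold change of 0.02 ± 0.12 did not pass the test (edgeR adjusted p = 0.92). Within 2 Mb of the interval between Galnt17 and Auts2, 6 of 23 genes tested were higher and 2 lower. Within 10 Mb, 50 of 217 were higher and 22 lower. Over all genes tested, 17.4% were higher and 18% lower, and an excess near the breakpoint was not tested.

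RNAs that stay in the nucleus were lower in the mutant. Of 17 nuclear long noncoding RNAs tested, 12 were lower and 1 was higher, and their median was -0.87 beside -0.004 over all genes. Meg3, an imprinted noncoding RNA abundant in neurons, stood at 1877, 2063 and 1891 CPM in WT and at 420.5, 477 and 603 CPM in 16GsoT/T. The lowest WT library thus stood above the highest mutant library, and the log2 fold change was -1.96 ± 0.11 (edgeR adjusted p = 1.3e-07). Snhg11, a host gene of small nucleolar RNAs (chromosome 2, 158201374 to 158211881), stood at 952, 1579 and 1205 CPM in WT and at 176, 207 and 302 CPM in the mutant. Its log2 fold change was -2.45 ± 0.19. Kcnq1ot1, an antisense RNA that silences an imprinted cluster, fell by 2.49 on the log2 scale, and Neat1, the scaffold of nuclear paraspeckles, fell by 1.85. Malat1, which is enriched in nuclear speckles, also fell, by 1.54. Its WT libraries stood at 458, 493 and 496 CPM and its mutant libraries at 209, 142 and 146 CPM.

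Splicing factors fell with them. Of 43 genes for splicing factors and their kinases, 27 were lower and 5 higher, and the median log2 fold change was -0.41. Pnisr, listed as Sfrs18, stood at 317, 306 and 338 CPM in WT and at 85.0, 108 and 95.3 CPM in 16GsoT/T, with no overlap. Its log2 fold change was -1.73 ± 0.08 (edgeR adjusted p = 7.2e-08). Clk1, a kinase of SR splicing proteins, stood at 161, 170 and 162 CPM in WT and at 52.4, 52.8 and 50.9 CPM in the mutant, so that the libraries of each group lay close together. Luc7l3, a U1 snRNP-associated factor, had a log2 fold change of -1.65 ± 0.07, and Clk4, a kinase related to Clk1, one of -1.28 ± 0.11. With offsets for transcript length and GC content, 23 members were lower, 8 were higher and the median was -0.26. The number higher was 3 without WT library 2 or 3 or 16GsoT/T library 2.

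The genes with the largest decreases among those of at least 4 log2 CPM were in part unannotated loci. C030023E24Rik stood at 33.2, 35.2 and 28.1 CPM in WT and at 2.23, 1.99 and 4.18 CPM in 16GsoT/T, a log2 fold change of -3.52 ± 0.21 (edgeR adjusted p = 2.2e-07). A230057D06Rik had a log2 fold change of -2.79 ± 0.17, Zfhx2as, an antisense transcript of Zfhx2, one of -2.27 ± 0.15, and LOC100504012 one of -2.10 ± 0.17. Reads of an antisense transcript and of its partner can be told apart only where counting used strand, and the counting mode is not given in the sources used here. Among named protein-coding genes, Leng8 (chromosome 7, 4088641 to 4099775) stood at 379, 379 and 361 CPM in WT and at 65.6, 88.1 and 86.6 CPM in the mutant. Its log2 fold change was -2.22 ± 0.09 (edgeR adjusted p = 3.0e-08). Rnpc3, a protein of the minor spliceosome (chromosome 3, 113307985 to 113333067), had a log2 fold change of -2.12 ± 0.10. Rec8, a cohesin subunit known from meiosis (chromosome 14, 56236874 to 56244232), stood at 47.7, 42.1 and 41.2 CPM in WT and at 3.26, 3.55 and 13 CPM in 16GsoT/T (log2 fold change -2.71 ± 0.31). Ttc14, Tia1 and Wsb1, named after their values were seen, had log2 fold changes of -1.98, -1.59 and -1.73.

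**Figure D2:**
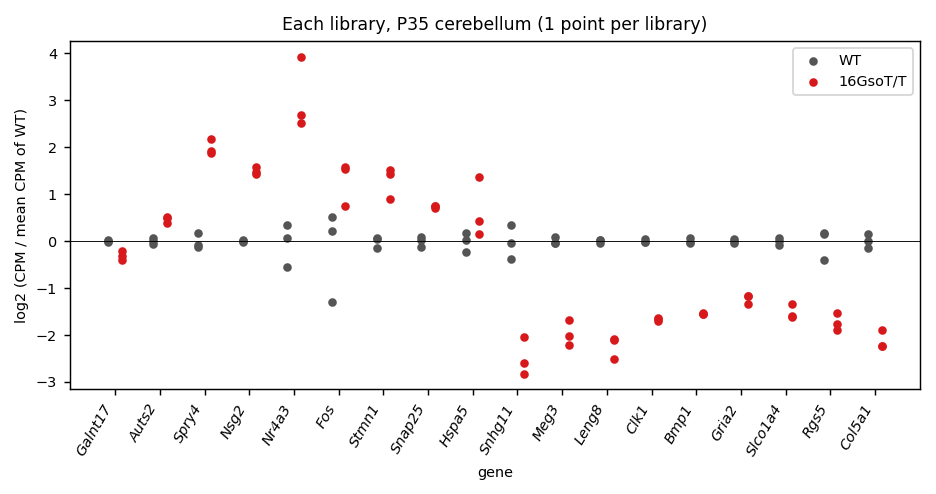
Level of 18 genes in each library, as log2 of CPM over the WT mean (vertical axis), with 1 point for each of 3 WT and 3 16GsoT/T libraries. The mutant libraries of Leng8, Clk1 and Meg3 lie below all WT libraries, and those of Spry4, Nsg2 and Nr4a3 above them, while those of Hspa5 overlap with WT.

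Markers of vessels and their surroundings were lower in the mutant. Of 18 endothelial genes 16 were lower and none higher (median -0.91), and their summed level ranged from 484 to 502 CPM in WT and from 246 to 290.2 CPM in 16GsoT/T. Slco1a4, a transporter of the blood-brain barrier, stood at 74.3, 70.4 and 77.7 CPM in WT and at 29.4, 24.3 and 24.5 CPM in the mutant, a log2 fold change of -1.51 ± 0.09 (edgeR adjusted p = 2.7e-07). Tek, the angiopoietin receptor, had a log2 fold change of -1.32 ± 0.16, and Cldn5, a tight junction protein, one of -1.07 ± 0.14. Of 13 mural cell genes tested 11 were lower, with a median of -0.91. Rgs5, a pericyte gene, stood at 51.5, 35 and 52.1 CPM in WT and at 12.4, 13.6 and 16.0 CPM in 16GsoT/T. The smooth muscle genes Myh11 and Acta2 had log2 fold changes of -1.69 ± 0.32 and -1.61 ± 0.36, and Acta2 did not pass in the fit of all 12 P35 libraries. With length and GC offsets 18 endothelial and 11 mural genes were lower. Of 19 solute carriers and pumps of the barriers, 7 were lower (11 with library totals alone) and 1 higher.

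Meningeal and matrix genes moved the same way. Of 18 meningeal fibroblast genes 12 were lower, with a median log2 fold change of -0.53, among them Lum, Ogn and Dcn, which code for small leucine-rich proteoglycans and had log2 fold changes of -1.63 ± 0.26, -1.35 ± 0.19 and -1.04 ± 0.11. Of 33 collagen genes tested 20 were lower and none higher (median -0.73). Col5a1, which regulates the width of collagen fibrils (chromosome 2, 27741945 to 27895034), stood at 24.6, 30.3 and 27.4 CPM in WT and at 5.84, 7.38 and 5.83 CPM in the mutant. Its log2 fold change was -2.11 ± 0.15 (edgeR adjusted p = 9.9e-07), one of the 10 largest decreases. Col1a1, the main fibrillar collagen of connective tissue, had a log2 fold change of -0.07 ± 0.14 (edgeR adjusted p = 0.72). Of 37 laminins and other matrix glycoproteins 14 were lower and 1 higher, with Ltbp2, a microfibril protein, at -1.66 ± 0.11 and Agrn, the synapse-organizing proteoglycan agrin, at -1.17 ± 0.09. That count was 9 without WT library 2 or 3 and 8 without 16GsoT/T library 3, and the meningeal count was 7 in the fit of all 12 P35 libraries.

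Genes of antigen presentation and the interferon response were lower too: 11 of 29 were lower and none higher, with a median of -0.55 (6 lower with DESeq2). B2m, the light chain of MHC class I, stood at 42.5, 43.3 and 55.5 CPM in WT and at 21.8, 22.6 and 26.7 CPM in 16GsoT/T, a log2 fold change of -0.98 ± 0.12. H2-D1, a class I heavy chain, stood at 71.4, 136 and 111 CPM in WT and at 3.43, 63.9 and 66.2 CPM in the mutant, so that 1 mutant library lay far below the other two, and the change did not pass the test (edgeR adjusted p = 0.067). MHC genes are polymorphic between strains and near-identical to each other, and such counts are uncertain.

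The choroid plexus markers depended on single libraries. Ttr, the transthyretin gene and their most abundant member, stood at 6.36, 1117 and 1980 CPM in WT and at 107, 322 and 241 CPM in 16GsoT/T. The groups overlapped, and Ttr did not pass the test (edgeR adjusted p = 0.091). Of 15 markers 5 were lower, but without WT library 1, which held the low Ttr value, 14 were, and without WT library 3 only 1 was. It was 2 without WT library 2, 16GsoT/T library 1 or 16GsoT/T library 3. Markers of glia were examined in the same way, and over all genes tested 17.4% were higher and 18% lower. Of 17 microglial genes tested 1 was lower (0 without WT library 1 or 3 or 16GsoT/T library 2 or 3), and Cx3cr1, the fractalkine receptor, had a log2 fold change of 0.14 ± 0.13 (edgeR adjusted p = 0.42). Of 19 myelin genes 5 were lower, and this count was 3 without WT library 1, 2 without WT library 2 or 16GsoT/T library 3 and 8 without 16GsoT/T library 2. Mbp, myelin basic protein, had a log2 fold change of -0.12 ± 0.11 (edgeR adjusted p = 0.44). Of 20 genes of Bergmann glia and astrocytes 5 were higher and 3 lower, and the latter count was 1 without WT library 1 or 3 or 16GsoT/T library 3. Of 18 brainstem and forebrain neuron markers only 2 were abundant enough to be tested, and neither passed. Without a filter on low counts 5 of the 18 were called higher, and the list median was 1.23 on the log2 scale. Their summed level ranged from 11.8 to 16.3 CPM in WT and from 10.1 to 42.0 CPM in 16GsoT/T, so that the groups overlapped, and the part of dissection in these values was not tested.

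**Figure D3:**
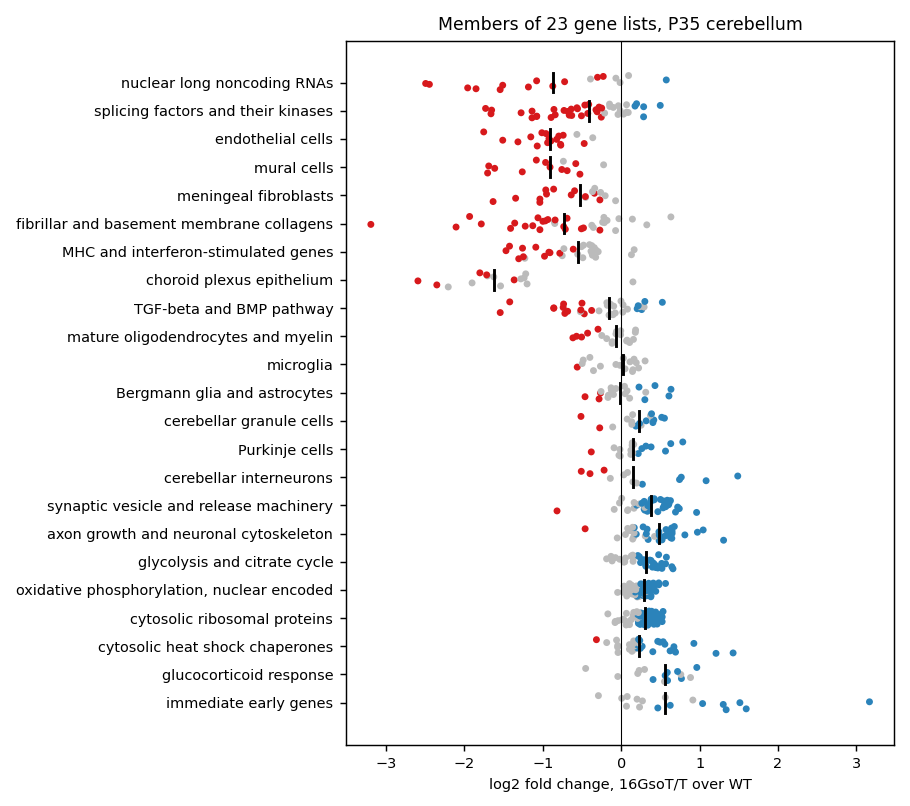
Log2 fold change of 16GsoT/T over WT (horizontal axis) for the tested members of 23 gene lists, 1 point a gene. Blue and red points passed an adjusted p of 0.05 as higher and lower, grey points did not, and black bars mark list medians, from -1.62 for choroid plexus to 0.56 for immediate early genes.

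Genes of axons and synapses were higher. Of 38 genes of axon growth and the neuronal cytoskeleton 26 were higher and 1 lower (median log2 fold change 0.48). Stmn1, which binds tubulin in growing neurons, stood at 169.8, 149 and 172 CPM in WT and at 304, 467 and 440.2 CPM in 16GsoT/T. The groups did not overlap, and the log2 fold change was 1.31 ± 0.13 (edgeR adjusted p = 1.4e-05). Basp1, a membrane protein of growth cones, had a log2 fold change of 1.05 ± 0.22, Tubb4, a beta tubulin, one of 0.97 ± 0.07, and Map1b, listed as Mtap1b, one of 0.81 ± 0.06. Of 38 genes of synaptic vesicles and release 28 were higher and 1 lower (median 0.38). Snap25, a SNARE protein of vesicle fusion, stood at 1856, 1952 and 1671 CPM in WT and at 2992, 3084 and 3082 CPM in the mutant. Its log2 fold change was 0.74 ± 0.06 (edgeR adjusted p = 3.4e-06), and that of Syn1, a phosphoprotein of the vesicle surface, was 0.96 ± 0.07. Nsg2, a neuronal protein of endosomes (chromosome 11, 31900463 to 31959202), had one of the largest increases, from 77.6, 76.4 and 79.2 CPM in WT to 209, 217 and 233 CPM in 16GsoT/T (log2 fold change 1.5 ± 0.06, edgeR adjusted p = 3.0e-08). Spry4, an inhibitor of receptor tyrosine kinase signaling, rose from 9.54, 9.31 and 11.4 CPM to 37.1, 37.9 and 45.3 CPM (log2 fold change 2.0 ± 0.13).

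Cell identity genes of cerebellar neurons moved less. Of 17 granule cell genes tested 8 were higher and 2 lower (median 0.23), and of 18 Purkinje cell genes 7 were higher and 1 lower (median 0.14), and in the fit of all 12 P35 libraries 5 and 4 were higher. Prkcc, the Purkinje cell protein kinase C, had a log2 fold change of 0.79 ± 0.07 (edgeR adjusted p = 5.0e-06). Calb1 and Pcp2, the usual Purkinje cell markers, had log2 fold changes of -0.03 ± 0.07 and -0.01 ± 0.06, and neither passed the test (edgeR adjusted p = 0.79 and 0.90). With length and GC offsets both passed, in opposite directions, at 0.42 and -0.19 (edgeR adjusted p = 0.00044 and 0.025). Of 13 interneuron genes 5 were higher and 3 lower (median 0.15). Eomes, a transcription factor of unipolar brush cells, had a log2 fold change of 1.49 ± 0.26, and Slc6a5, the glycine transporter of inhibitory interneurons, one of 1.08 ± 0.24. Receptors and channels were split. Gria2, an AMPA receptor subunit, stood at 568, 552 and 533 CPM in WT and at 219, 247 and 243 CPM in the mutant, a log2 fold change of -1.22 ± 0.06 (edgeR adjusted p = 1.1e-07), while 6 of 28 glutamate receptor genes were higher and 6 lower. Kcnt1, a sodium-activated potassium channel, had a log2 fold change of -0.91 ± 0.06, in a list of 50 potassium and HCN channel genes of which 8 were higher (4 without WT library 1) and 6 lower.

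Genes of protein synthesis and energy metabolism were higher by small amounts. Increases were frequent among abundant genes in general, with 41.4% of the quintile of highest mean level called higher (median 0.13). Of 76 cytosolic ribosomal protein genes tested 56 were higher and none lower (median 0.30), of 75 nuclear-encoded oxidative phosphorylation genes 49 were higher and none lower (median 0.29), and of 35 genes of glycolysis and the citrate cycle 23 were higher and none lower (median 0.32). Aldoa, a glycolytic aldolase, stood at 841, 855 and 849 CPM in WT and at 1427, 1175 and 1379.8 CPM in 16GsoT/T (log2 fold change 0.65 ± 0.07). Of 31 proteasome subunit genes 18 were higher and 2 lower, and without 16GsoT/T library 3 the former count was 11. The 2 proteasome genes called lower did not hold with length and GC offsets. Without WT library 3, 32 oxidative phosphorylation genes were called higher. When all 12 P35 libraries entered 1 fit, 31 ribosomal protein genes and 21 oxidative phosphorylation genes were called higher, and with length and GC offsets 39 and 35 were.

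Immediate early genes, which neurons and other cells switch on within minutes of stimulation, were higher. Of 17 tested 8 were higher and none lower (median 0.56; 5 higher with DESeq2). Nr4a3, an orphan nuclear receptor, stood at 1.75, 3.23 and 2.66 CPM in WT and at 14.6, 16.5 and 38.8 CPM in 16GsoT/T. Its log2 fold change was 3.17 ± 0.41 (edgeR adjusted p = 0.00011). Nr4a2, a related receptor, had a log2 fold change of 1.51 ± 0.22, and Fosl2, an AP-1 subunit, one of 1.59 ± 0.30. Fos, another AP-1 subunit, stood at 14.8, 41.8 and 51.7 CPM in WT and at 105, 60.4 and 108 CPM in the mutant (log2 fold change 1.34 ± 0.31), and did not pass with DESeq2. Npas4 and Arc, both induced by neuronal activity, overlapped between groups and did not pass (edgeR adjusted p = 0.13 and 0.37). Of 15 glucocorticoid response genes 7 were higher and none lower (median 0.56; 11 higher without 16GsoT/T library 1), among them Cdkn1a, a cell cycle inhibitor, at 0.96 ± 0.15 and Per1, a clock gene, at 0.77 ± 0.11.

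Chaperones of the cytosol were also higher: 19 of 35 heat shock chaperone genes were higher and 1 lower (median 0.22), and 10 of 14 genes of the TRiC chaperonin and prefoldin were higher. Hspa8, the constitutive HSP70, stood at 1109, 1178 and 1240.2 CPM in WT and at 1567, 1711 and 2157 CPM in 16GsoT/T (log2 fold change 0.62 ± 0.10). Hspa1a and Hspa1b, the near-identical inducible HSP70 genes between which reads cannot be placed with certainty, had log2 fold changes of 1.21 ± 0.26 and 1.43 ± 0.40, and Hspa1b did not pass without WT library 3 or 16GsoT/T library 3. Of 28 genes of the endoplasmic reticulum (ER) chaperones and the unfolded protein response 6 were higher and 3 lower. These were 21.4% and 10.7% of the list, beside 17.4% and 18% of all genes tested. Hspa5, the ER chaperone BiP, stood at 185, 221 and 242 CPM in WT and at 242, 289 and 555 CPM in the mutant, so that 1 mutant library was far above the other two, and its log2 fold change was 0.75 ± 0.23 (edgeR adjusted p = 0.024). That call was lost in 5 of 13 other fits, with DESeq2, in the fit of all 12 P35 libraries and without WT library 1 or 2 or 16GsoT/T library 3, and the log2 fold change ranged from 0.30 to 0.97. The number of ER genes called higher was 3 without WT library 1 or 16GsoT/T library 3, 2 without WT library 2 and 14 without 16GsoT/T library 1. The number called lower was 0 without WT library 1 and 1 without WT library 2 or 3 or 16GsoT/T library 1 or 2.

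Some of the promoters of these chaperones carry known regulatory elements. In the 250 bases before the start site, RefSeq sequences of GRCm38.p6 were found for 9284 of the genes tested. The core of the heat shock element, GAANNTTC or TTCNNGAA on either strand, was present in 12 of 29 cytosolic chaperone promoters (41.4%) and in 11.8% of all promoters. The ER stress response element (CCAAT and CCACG 9 bases apart, either strand) was present in 8 of 25 ER promoters (32.0%) and in 0.151% of all. The core of the cAMP response element, TGACG on either strand, was present in 10 of 14 immediate early gene promoters (71.4%) and in 30.4% of all, but also in 17 of 29 cytosolic chaperone promoters (58.6%) and 12 of 25 ER promoters (48.0%). These shares are over whole lists and take in members that were not called higher. Among members called higher with a promoter, the heat shock element was present in 8 of 15 cytosolic chaperones. The ER stress response element was present in 2 of 5 such ER genes, Hspa5 and Calr. The cAMP response element core was present in 5 of 7 such immediate early genes. A match describes letters in this window and not a bound site. For 4 cytosolic and 2 ER chaperones that were higher in the mutant, chosen after their values were seen, 100 bases around the match nearest the start site are shown 5′ to 3′ along the gene, with the match in capitals.
Hspa1a (GRCm38.p6 chr17:34972207-34972306, minus strand): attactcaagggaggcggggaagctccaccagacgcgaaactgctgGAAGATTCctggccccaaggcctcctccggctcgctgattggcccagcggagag
Hspa1b (GRCm38.p6 chr17:34959289-34959388, minus strand): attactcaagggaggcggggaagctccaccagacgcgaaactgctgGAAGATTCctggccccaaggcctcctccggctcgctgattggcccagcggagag
Hsph1 (GRCm38.p6 chr5:149636337-149636436, minus strand): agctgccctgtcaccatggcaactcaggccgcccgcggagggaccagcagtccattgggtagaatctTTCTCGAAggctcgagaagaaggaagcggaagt
Dnaja1 (GRCm38.p6 chr4:40722298-40722397, plus strand): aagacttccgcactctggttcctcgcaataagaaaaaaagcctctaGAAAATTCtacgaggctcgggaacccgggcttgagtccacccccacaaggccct
Hspa5 (GRCm38.p6 chr2:34771984-34772083, plus strand): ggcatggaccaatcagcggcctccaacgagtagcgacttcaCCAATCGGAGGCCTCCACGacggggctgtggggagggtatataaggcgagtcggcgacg
Calr (GRCm38.p6 chr8:84847035-84847134, minus strand): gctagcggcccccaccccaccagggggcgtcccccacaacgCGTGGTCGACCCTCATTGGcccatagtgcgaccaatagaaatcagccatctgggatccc
The stretches of Hspa1a and Hspa1b were identical.

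Glycosylation genes were examined because Galnt17 belongs to this pathway. Of 15 polypeptide GalNAc transferases tested, the family that adds the first sugar, 5 were lower (3 with length and GC offsets) and none higher (median -0.11), with Galnt18, listed as Galntl4, at -0.49 ± 0.12. Of 32 genes of N-glycan assembly 5 were higher (15.6%) and 4 lower (12.5%), beside 17.4% and 18% of all genes tested. The number higher was 2 without WT library 1 or 16GsoT/T library 3 and 3 without WT library 2 or 3, and the number lower was 1 without WT library 1 and 0 in the fit of all 12 P35 libraries. A set of 17 glycosylation genes that the study had picked on these libraries held 15 that were lower (median -0.71), which is not independent evidence of a direction. Its members included Ndst3, an enzyme of heparan sulfate modification, which stood at 159.6, 167 and 172 CPM in WT and at 83.4, 92.9 and 86.0 CPM in 16GsoT/T (log2 fold change -0.92 ± 0.07).

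In the TGF-beta and BMP pathway 12 of 34 genes were lower (7 without 16GsoT/T library 3) and 5 higher. The latter count was 0 without WT library 2, 1 without WT library 1 or 16GsoT/T library 3 and 3 without 16GsoT/T library 2. Bmp1, a protease that cleaves procollagen and chordin, stood at 281, 282 and 299.5 CPM in WT and at 97.9, 98.3 and 99.5 CPM in the mutant, with a log2 fold change of -1.54 ± 0.06 (edgeR adjusted p = 2.2e-08), and Chrd, chordin itself, had a log2 fold change of -1.42 ± 0.10. Of 23 Notch pathway genes 6 were lower (3 without WT library 1) and 3 higher, of 36 Wnt pathway genes 6 were lower (3 without WT library 2 or 16GsoT/T library 2) and 5 higher (3 without 16GsoT/T library 3), and of 13 Hedgehog pathway genes 2 were lower (0 without WT library 1, 1 without 16GsoT/T library 3).

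The remaining lists were split. Of 46 histone methyltransferases and chromatin remodelers 16 were higher and 7 lower (4 without WT library 1 or 16GsoT/T library 1, 3 without WT library 2 or 3), with Smarca2, an ATPase of the BAF complex, at 0.77 ± 0.06 and Dnmt1, the maintenance DNA methyltransferase, at 0.73 ± 0.08. Of 37 Polycomb genes 11 were higher (7 without WT library 2) and 6 lower, and Pcgf6, a subunit of a variant PRC1 complex, had a log2 fold change of -0.91 ± 0.13. Of 58 axon guidance genes tested 11 were higher and 8 lower, and the former count was 4 to 7 without WT library 1, 2 or 3 or 16GsoT/T library 2 or 3. Slit3, a repulsive ligand, had a log2 fold change of 1.0 ± 0.11, and Sema3c, a secreted semaphorin, one of -1.11 ± 0.23. Of 23 cholesterol synthesis genes 6 were higher and 6 lower, and the latter count was 2 without WT library 1 or 2 or 16GsoT/T library 3 and 3 without WT library 3 or 16GsoT/T library 2. Of 18 clock genes 9 were higher (5 without 16GsoT/T library 3) and 4 lower. Of 14 genes of DNA replication and mitosis tested 1 was higher, Mcm3, a subunit of the replicative helicase, at 0.90 ± 0.26, and Mcm3 did not pass with DESeq2 or without WT library 3 or 16GsoT/T library 3.

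Among the most abundant DEGs, Itpr1, the IP3 receptor of Purkinje cells, stood at 3787, 3733 and 3754 CPM in WT and at 4702, 4268 and 4139 CPM in 16GsoT/T. Its log2 fold change was 0.22 ± 0.06 and did not pass with length and GC offsets or in the fit of all 12 P35 libraries. Hddc3, a phosphohydrolase gene (chromosome 7, 87488023 to 87490983), was among the largest increases, from 10.8, 8.07 and 7.98 CPM in WT to 34.7, 34.4 and 30.0 CPM in the mutant. Lars2, the mitochondrial leucyl-tRNA synthetase, stood at 219, 248 and 181 CPM in WT and at 704, 366 and 677 CPM in the mutant, so that 1 mutant library lay far below the other two. Lars2 did not pass in the fit of all 12 P35 libraries.

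Some genes were close to all or none in P35 CB. Gm9855, a predicted gene annotated as a pseudogene (chromosome 10, 41773919 to 41775160), had 1, 3 and 0 counts in WT and 164, 90 and 93 counts in 16GsoT/T. Against a floor of 3 counts per WT library it was at least 37.9-fold higher. In P35 HC the level of Gm9855 varied within each genotype, from 0 to 10.9 CPM in WT and from 0.24 to 21.4 CPM in 16GsoT/T. In P14 CB it stood at 18.3 to 20.9 CPM in WT, and its change did not pass the test (edgeR adjusted p = 0.15). Capn11, a calpain protease (chromosome 17, 45767153 to 45796274), had 43, 26 and 55 counts in WT P35 CB. It had 1, 1 and 0 counts in the mutant, and was at least 15.1-fold lower against the same floor. Hba-a2 and Hba-a1, near-identical alpha globin genes, moved in opposite directions, with log2 fold changes of -4.28 ± 0.25 and 1.62 ± 0.18, and reads shared between such copies make both values uncertain. All 4 genes of the Y chromosome tested were lower, with Eif2s3y at 65.8, 61.2 and 62.0 CPM in WT and at 22.1, 20.3 and 20.8 CPM in 16GsoT/T, and these genes were lower in P14 CB as well. With length and GC offsets 2 of the 4 were called in P35 CB and their median moved from -0.71 to -0.26, with Uty and Ddx3y at -0.25 and -0.20 no longer called. Kdm5d did not pass with DESeq2, in the fit of all 12 P35 libraries or without WT library 1.

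The direction of change varied with GC content and level. In the quintile of genes with the lowest GC content, 4.60% were higher and 35.6% lower, and in the quintile below the highest 25.8% were higher and 10.7% lower. In the quintile of genes with the lowest mean level 2.43% were higher and 18.3% lower, and in the highest quintile 41.4% and 14.3%. With length and GC offsets 2209 genes were higher (15.8%) and 2198 lower (15.7%), and the share in the lowest GC quintile became 15.6% higher and 15.3% lower. The decrease of Gabra6, a granule cell GABA receptor subunit, from -0.27 ± 0.05 on the log2 scale to 0.037, and that of the proteasome gene Psmc6, from -0.32 ± 0.07 to 0.15, did not hold under these offsets.

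**Figure D4:**
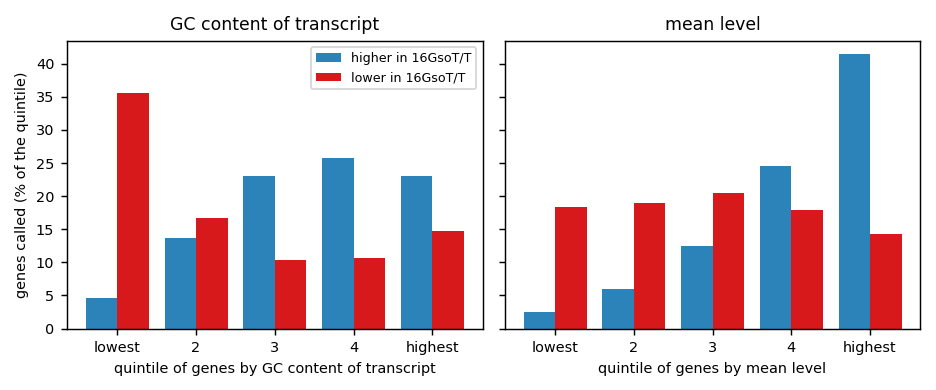
Percent of genes called higher (blue) and lower (red) in 16GsoT/T, in quintiles of the tested genes by GC content (left) and by mean level (right). In the quintile of lowest GC content more genes were lower (35.6%) than higher (4.60%), and in that of the highest level more were higher (41.4%) than lower (14.3%).

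The P35 CB changes were compared with those of the same genotypes at postnatal day 14 (P14) and in the P35 HC. In P14 CB 81 of 15993 genes were DEGs (0.506%), and in P35 HC 18 of 13343 (0.135%). The P35 HC libraries held fewer reads on genes, 2563968 to 4127478 beside 5140843 to 7974640 in P35 CB. The part of depth in these numbers of DEGs was not tested. The P14 CB libraries stood apart from those of P35, with 64.8 to 68.1% of reads and 22893603 to 40564789 reads on genes, and 1 of their 3 mutant libraries differed from the other two by a chi-square per degree of freedom of 47.3 and 58.4, beside 15.1 between the latter. Preparation and age cannot be told apart in the age difference. The difference of the genotype effect between P35 and P14 CB passed the test for 2934 of 15784 genes (18.6%), of which 1233 were above 0 (7.81%) and 1701 below 0 (10.8%). Between P35 CB and P35 HC it passed for 1380 of 14363 genes (9.61%), 647 above 0 (4.50%) and 733 below 0 (5.10%). Meg3 ranged from 1388 to 1958 CPM in P14 mutant CB and from 2100 to 2162 CPM in P14 WT CB, and in P35 HC from 1737 to 2182 CPM in the mutant and from 1851 to 2037 CPM in WT. Of the endothelial genes, 14 passed with a difference below 0 between ages and 4 between regions, and of the splicing factors 24 and 19 did. The median difference over the endothelial genes was -0.85 between ages and -0.68 between regions. Of 38 synaptic vesicle genes 21 passed with a difference above 0 between ages and 16 between regions. Of the 15 glucocorticoid response genes 8 were lower in P14 CB (0.413% of all genes were), and 13 passed with a difference above 0 between ages. Of 71 genes called in P14 CB and tested in both, 31 were also called in P35 CB, which is 43.7% of the former and 0.637% of the latter, beside 35.6% of all 13670 genes tested in both that were called in P35 CB, and 22 of the 31 had the same sign.

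**Figure D5:**
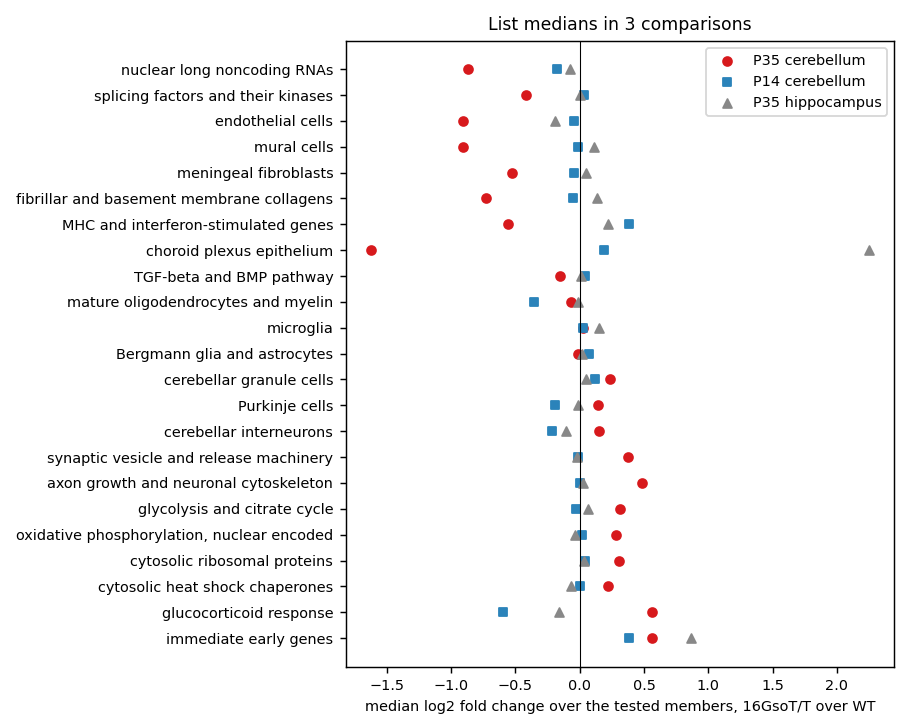
Median log2 fold change of 16GsoT/T over WT (horizontal axis) over the tested members of 23 gene lists, in P35 CB (circles), P14 CB (squares) and P35 HC (triangles). The endothelial median was -0.91 in P35 CB, -0.05 in P14 CB and -0.19 in P35 HC.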

How the data were processed

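RNA was read in 3 libraries from the cerebellum of WT mice and 3 from that of 16GsoT/T mice at P35. The values are whole-number counts per gene symbol, deposited by the authors as raw counts. The submitters' processing notes name CASAVA 1.8.2, TopHat2 2.0.8, HTSeq 0.6.1, edgeR 3.2.4, R 3.0.0 and the build NCBIM37. The labels name a TruSeq stranded kit and the methods a KAPA stranded kit. Rows that name no gene stayed out of library sizes and tests.

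Counts were fitted with edgeR 4.0.16 (R 4.3.3; quasi-likelihood test, TMM factors, filterByExpr set to counts of 10 and totals of 15). The age and region differences were interaction terms in fits of 12 libraries each. Positions, length and GC content came from the NCBIM37 annotation, with length and GC for 91.5% of genes tested. On simulated counts in which 200 genes had a log2 change of 1.5, 96.5% of changed genes in P35 CB were recovered among 13987 genes tested. For the age and region differences 75.6% and 80.1% were recovered. Smaller changes and trends with GC content were not simulated. DESeq2 1.42.0, other scalings and filters, and fits without each library were alternatives. The labels number the libraries without saying that each is a separate animal, so p-values measure the spread between these samples. The genes named were the breakpoint genes, the 10 largest increases and decreases among DEGs of at least 4 log2 CPM without overlap, up to 4 DEGs for each of 56 lists, the 6 DEGs of highest level, and others chosen after their values were seen. The latter include Malat1, Ttc14, Tia1, Wsb1, Cldn5, Col1a1, B2m, H2-D1, Ttr, Cx3cr1 and Mbp. Calb1, Pcp2, Npas4, Arc, Hspa8, Gm9855 and Capn11 were also chosen in this way. Members and lists were chosen with earlier results of these data known.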

Additional observations from a re-analysis of the deposited data

Results flagged for a closer look

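The genotype effect differed between ages in the cerebellum for 2934 genes and between regions at P35 for 1380 genes (edgeR interaction terms). Among the breakpoint genes and those of largest change, the log2 fold change in P35 CB minus that in P14 CB passed this test for the following genes. It was above 0 for Galnt17 (0.73), Auts2 (0.59), Spry4 (1.99), Hba-a1 (1.77), Nsg2 (1.20) and Eomes (1.0), and it was below 0 for C030023E24Rik (-3.53), A230057D06Rik (-2.78), Rec8 (-2.15), Snhg11 (-1.89), Zfhx2as (-2.14), Leng8 (-1.98), Rnpc3 (-2.05), Col5a1 (-2.00) and LOC100504012 (-1.87). For the log2 fold change in P35 CB minus that in P35 HC, it was above 0 for Spry4 (2.07), Hddc3 (1.17), Hba-a1 (1.52), Nsg2 (1.53), LOC236598 (4.45) and Lars2 (4.13), and it was below 0 for Hba-a2 (-3.13), C030023E24Rik (-3.74), A230057D06Rik (-2.71), Snhg11 (-2.49), Zfhx2as (-1.65), Leng8 (-2.29), Rnpc3 (-2.03), Col5a1 (-3.51) and LOC100504012 (-2.26). Galnt17 fell by 1.05 on the log2 scale in P14 CB (edgeR adjusted p = 0.00056) and by 0.31 in P35 CB. Lars2 and LOC236598 had log2 fold changes of -2.72 and -2.99 in P35 HC, where neither passed the test (edgeR adjusted p = 0.18 and 0.15). Both differences rest on the same P35 CB libraries. The part of read shares, strain or dissection in them was not tested.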

How the results depend on the processing

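No paired analysis was possible because the labels give the P35 CB libraries no replicate numbers shared between genotypes. The number of DEGs was 3631 with DESeq2, 4978 with DESeq2's size factors, 5295 without a filter on low counts and 4407 with length and GC offsets. It came to 1634 with a fold change of at least 1.5, of which 343 were higher and 1291 lower. DESeq2 called 1659 genes lower, and the fit of all 12 P35 libraries called 1594 higher. Without each library in turn the number of DEGs ranged from 3792 to 4762, of genes called higher from 1877 to 2410, and of genes called lower from 1895 to 2352. The age difference ranged from 2112 to 3341 genes, and the region difference from 868 genes (without WT library 2 of P35 CB) to 1427, with 911 without 16GsoT/T library 3. Sox1 was not called in any fit, and its log2 fold change was -0.036 with library totals alone, -0.069 without WT library 3 and -0.011 without 16GsoT/T library 2. Th, a catecholamine enzyme that was not called either, came to -0.93 without 16GsoT/T library 3. Gabra6 and Psmc6 came to 0.037 and 0.15 with length and GC offsets. Gm10260, at 2.58, was no longer called without WT library 2 or 3 or in the fit of all 12 P35 libraries, and its log2 fold change ranged from 1.91 to 7.83. The cause of these moves was not tested.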
